A study of Mus musculus with 16 samples.

Results

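The nuclear-encoded subunits of respiratory complex I were taken as every non-control probe of the array whose gene name began with Nduf followed by a, b, c, s or v and a digit, together with Ndufab1. This rule found 36 genes with 51 probes, of 27962 gene names and 41174 probes in all, and used names alone. Lumbar spinal cord was compared between male SOD1G93A mice and age-matched wild-type mice labeled NonTg, at 40 and 80 days, with 4 arrays for each genotype at each age. All mice had the B6SJL background, and both ages precede the onset of symptoms in this line. SOD1G93A mice carry many copies of a mutant human SOD1 gene, so the transgenic groups also differ from wild-type by the load of human protein. Each array carried Cy3-labeled cord RNA of 1 biological replicate against a Cy5-labeled pool of RNA from neonatal heart, kidney and liver, made from both genotypes, and no array had the dyes exchanged.

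Complex I oxidizes NADH in the mitochondrial matrix, passes the electrons to ubiquinone and pumps protons across the inner membrane. Its N module at the tip of the matrix arm takes electrons from NADH, its Q module below reduces ubiquinone, and the proximal and distal parts of its membrane arm hold the proton pumps. The core subunits carry the flavin, the iron-sulfur clusters, the quinone site and the pumps, while the accessory subunits surround them and are needed for assembly and stability. Spinal motor neurons have long axons with a high demand for ATP, and mutant SOD1 is known to associate with mitochondria.

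The members called lower in SOD1G93A cord at 80 days with no overlap between the groups were Ndufb3, Ndufa5, Ndufb7, Ndufa2, Ndufa11 and Ndufa13. Shown here, for the 5 of them other than Ndufa2, are the 120 bases before the first transcription start given by RefSeq on GRCm38.p6, 5′ to 3′ along the gene. They are shown because these genes were low together, and capitals mark matches to the motifs named below.
Ndufb3, chr1:58586277-58586396, plus strand: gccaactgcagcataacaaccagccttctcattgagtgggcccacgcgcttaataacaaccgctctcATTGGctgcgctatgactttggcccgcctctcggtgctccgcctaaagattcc
Ndufa5, chr6:24527691-24527810, minus strand: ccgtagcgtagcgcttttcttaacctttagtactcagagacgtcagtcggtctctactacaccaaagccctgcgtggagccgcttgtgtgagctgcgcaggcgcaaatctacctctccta
Ndufb7, chr8:83566638-83566757, plus strand: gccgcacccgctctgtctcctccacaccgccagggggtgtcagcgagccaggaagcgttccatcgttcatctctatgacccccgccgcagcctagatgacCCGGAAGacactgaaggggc
Ndufa11, chr17:56717642-56717761, plus strand: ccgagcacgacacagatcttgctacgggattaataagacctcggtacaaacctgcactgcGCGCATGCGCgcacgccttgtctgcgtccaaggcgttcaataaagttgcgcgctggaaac
Ndufa13, chr8:69902021-69902140, minus strand: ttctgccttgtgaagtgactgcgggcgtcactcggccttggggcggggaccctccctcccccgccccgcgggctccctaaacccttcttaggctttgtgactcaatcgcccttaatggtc

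The motifs searched on both strands were GCGCATGCG (NRF1), CCGGAAG (ETS factors such as GABPA), AAGATGGC (YY1) and CCAAT (NF-Y), of which none contains another. Windows of 250 bases before to 50 bases after the start were found for 32 of the 36 genes, and not for 4. Ndufa5 and Ndufa7 had 2 windows each, giving 34 windows. The NRF1 motif was found in 2 genes, Ndufa11 and Ndufa8, and in 1.75% of 32851 windows of all genes. In Ndufa11 it matched on both strands 1 base apart, so the capitals run over 10 bases. The ETS motif was found in 4 genes, Ndufb7, Ndufb6, Ndufs3 and Ndufs8, and in 8.86% of all windows. The CCAAT motif was found in 9 genes, among them Ndufb3 in the stretch shown and Ndufa13 further from the start, and in 37.4% of all windows. The YY1 motif was found in 7 genes, each time after the start (Ndufa3, Ndufa9, Ndufb8, Ndufc1, Ndufs4, Ndufs6 and Ndufs7), and in 2.75% of all windows. Among the 7 genes called at 80 days that had a window, the NRF1 and ETS motifs were each found in 1 and the YY1 and CCAAT motifs in 2. The median GC content of the 250 bases before the start was 57.8% for the 34 windows of the members and 52.4% for all windows.

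Of the 51 probes, 47 passed the filter on dim probes in every comparison, with at least 1 for each of the 36 genes, and 46 of them were well above background on all 16 arrays. The other 4 were dim second probes of Ndufa3, Ndufab1, Ndufs1 and Ndufs4. Neuronal, astrocyte and oligodendrocyte markers were well above background on all 16 arrays (11 of 11, 8 of 8 and 8 of 8 genes). Values are log2 ratios of cord to the neonatal pool, and the tests compare arrays for 1 probe at a time. As a description, with no test, over 16 arrays the mean log2 ratio of the brightest probe of each gene was above 0 for 14 genes and below 0 for 22, with a median of -0.14, beside 0.15 for all 17591 probes well above background on every array. The highest means were those of Ndufs5 (0.88) and Ndufb3 (0.86), and the lowest those of Ndufb11 (-0.90) and Ndufc2 (-0.81). These ratios set the cord against heart, kidney and liver and are open to dye bias. The median SD of the members within groups was 0.092 on the log2 scale, beside 0.11 for all probes.

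Slides 1 to 4 held replicates 1 to 4 of every group, with each group at the same place on every slide, so an effect of place cannot be told apart from one of group. Skeletal muscle markers, which cord should lack, varied between arrays: their score, the median deviation of 4 genes from their mean over 16 arrays, was highest in SOD1G93A 40 days replicate 2 (2.51), SOD1G93A 80 days replicates 2 (1.26) and 4 (0.97), and wild-type 80 days replicate 1 (0.93), and ran from -0.79 to 0.21 elsewhere. The 7 muscle genes tested had changes above 0 at both ages (medians 0.80 and 0.45), with 0 called at either (limma, unadjusted p under 0.05), and their part in the complex I values was not tested. The score of microglial markers was highest in SOD1G93A 80 days replicate 4 (0.80). In whole tissue, fewer cells of a type and less RNA per cell cannot be told apart.

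At 80 days, 8 of the 47 member probes were lower in SOD1G93A cord at an unadjusted limma p under 0.05 and 0 were higher, where 3.18% of all 21603 probes tested were lower and 3.68% were higher. The 8 probes belong to 8 genes and were lower by 9.05% to 14.9%. Changes were below 0 for 38 of the 47 probes and for 29 of the 36 genes, and the median change per gene was -0.071 on the log2 scale, beside -0.0020 for all probes. None passed an adjusted p under 0.05 in limma with Benjamini-Hochberg adjustment over all probes, with 0.658 as the lowest among the members, and no probe of the array did. In 6 of the 47 the groups did not overlap, all lower in SOD1G93A, where 2.3% of all probes had every SOD1G93A array below every wild-type array and 2.03% the reverse.

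**Figure D1:**
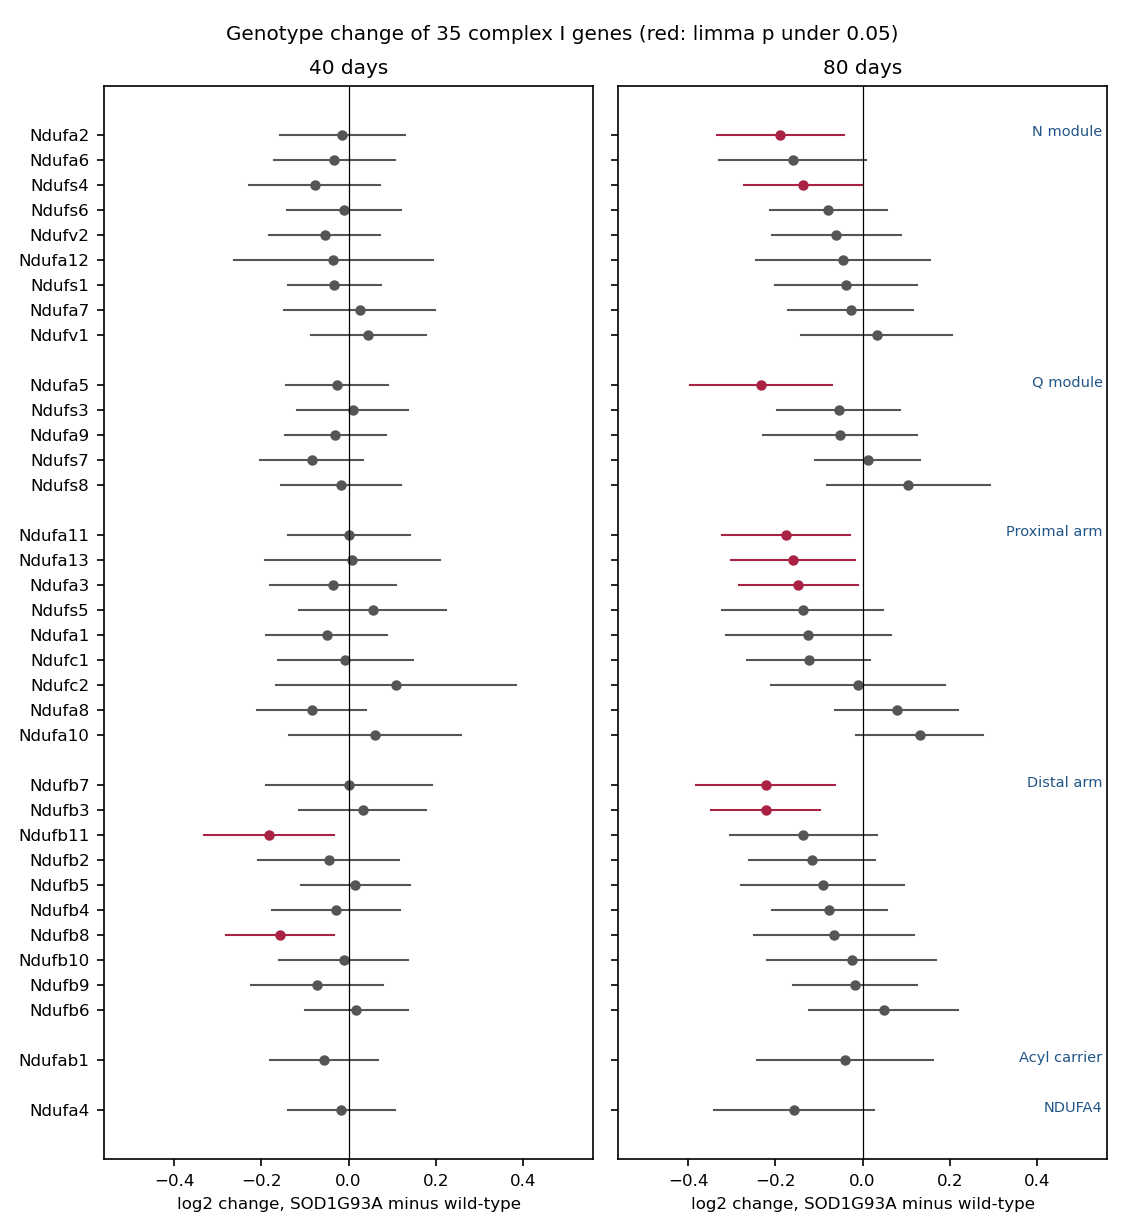
Log2 change of SOD1G93A against wild-type cord for 35 complex I genes at 40 days (left) and 80 days (right), 1 probe per gene, grouped by module, with points for estimates, lines for 95% confidence intervals from limma and red for p under 0.05. At 80 days 29 of the 35 points lie left of 0 and 8 are red, and at 40 days 23 lie left of 0 and 2 are red.

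In the N module, Ndufa2 and Ndufs4 were called. Ndufa2, an accessory subunit with a thioredoxin-like fold, had log2 ratios of -0.051, -0.10, -0.10 and 0.0088 in wild-type and -0.23, -0.33, -0.32 and -0.13 in SOD1G93A cord at 80 days, and every SOD1G93A array lay below every wild-type array. The change was -0.19 ± 0.065 (SE, n = 4 and 4, limma p = 0.0158, exact permutation p = 0.0286), and this exact p is the smallest that 4 arrays against 4 can give. Ndufs4, a subunit whose loss causes Leigh syndrome in patients and an encephalopathy in mice, had log2 ratios of -0.58, -0.56, -0.66 and -0.49 in wild-type and -0.73, -0.64, -0.69 and -0.77 in SOD1G93A cord. Wild-type replicate 3 lay below SOD1G93A replicate 2, and the change was -0.14 ± 0.061 (SE, limma p = 0.0485, exact permutation p = 0.0571). With the slide, which is the replicate number, as a block, Ndufs4 was no longer called, and it was the only one of the 8 called probes of 80 days so lost. Changes were below 0 for 8 of the 9 genes of the module, with a median of -0.060.

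Ndufa5, an accessory subunit that sits on the Q module, had log2 ratios of 0.11, 0.17, 0.41 and 0.25 in wild-type and 0.057, -0.0018, -0.047 and 0.0097 in SOD1G93A cord at 80 days. The groups did not overlap, and the change of -0.23 ± 0.073 (SE, limma p = 0.00943, exact permutation p = 0.0286) was the greatest in size among the members. Of the 6 genes of the Q module, Ndufa5 included, 3 had changes above 0 and 3 below, with a median of -0.021.

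The proximal membrane arm held 3 called genes of 9, with a median of -0.12 and 7 changes below 0. Ndufa11, which lies where complex I meets complex III in supercomplexes, had log2 ratios of -0.12, 0.033, -0.14 and 0.045 in wild-type and -0.27, -0.26, -0.16 and -0.19 in SOD1G93A cord (change -0.18 ± 0.066, SE, limma p = 0.0231, exact permutation p = 0.0286). Ndufa13, also known as GRIM-19 and as a partner of STAT3, had 0.23, 0.22, 0.24 and 0.38 against 0.18, 0.078, 0.029 and 0.15 (change -0.16 ± 0.064, SE, limma p = 0.0318, exact permutation p = 0.0286). Neither gene's groups overlapped. Ndufa3 had 0.36, 0.30, 0.20 and 0.33 against 0.17, 0.21, 0.069 and 0.14, and here wild-type replicate 3 fell below SOD1G93A replicate 2 (change -0.15 ± 0.061, SE, limma p = 0.0365, exact permutation p = 0.0571).

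Ndufa11 had a second probe, and on mm7 the 60-base probes lie 10 bases apart on chromosome 17 (54928965 to 54929024 and 54928975 to 54929034, plus strand). Their first 30 bases, as the array files give them, are shown with the bases common to both stretches in capitals.
A_52_P13436: ctttagggtcGGCCGAGCAAGCCCAGCTAG
A_51_P279854: GGCCGAGCAAGCCCAGCTAGgtatggcgat
The probes share 50 bases, and A_52_P13436 read -0.083, 0.054, -0.13 and 0.058 in wild-type and -0.16, -0.12, -0.11 and -0.18 in SOD1G93A cord at 80 days. Its change was -0.12 (limma p = 0.0928, exact permutation p = 0.0857), in the same direction as that of A_51_P279854 but not called. Of the 8 called probes this is the only one whose gene had another probe tested.

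In the distal membrane arm, Ndufb3 and Ndufb7 were called. Ndufb3, an accessory subunit embedded in the membrane, had log2 ratios of 1.04, 0.98, 0.96 and 1.03 in wild-type and 0.79, 0.79, 0.71 and 0.84 in SOD1G93A cord at 80 days. All 4 SOD1G93A arrays lay below all wild-type arrays, and the change was -0.22 ± 0.057 (SE, limma p = 0.00272, exact permutation p = 0.0286). Ndufb7, an accessory subunit facing the intermembrane space, had log2 ratios of -0.086, -0.17, 0.12 and -0.061 in wild-type and -0.28, -0.26, -0.34 and -0.22 in SOD1G93A cord. The groups did not overlap, and the change was -0.22 ± 0.071 (SE, limma p = 0.0108, exact permutation p = 0.0286). Of the 10 genes of this arm, 9 had changes below 0, and the median was -0.084.

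**Figure D2:**
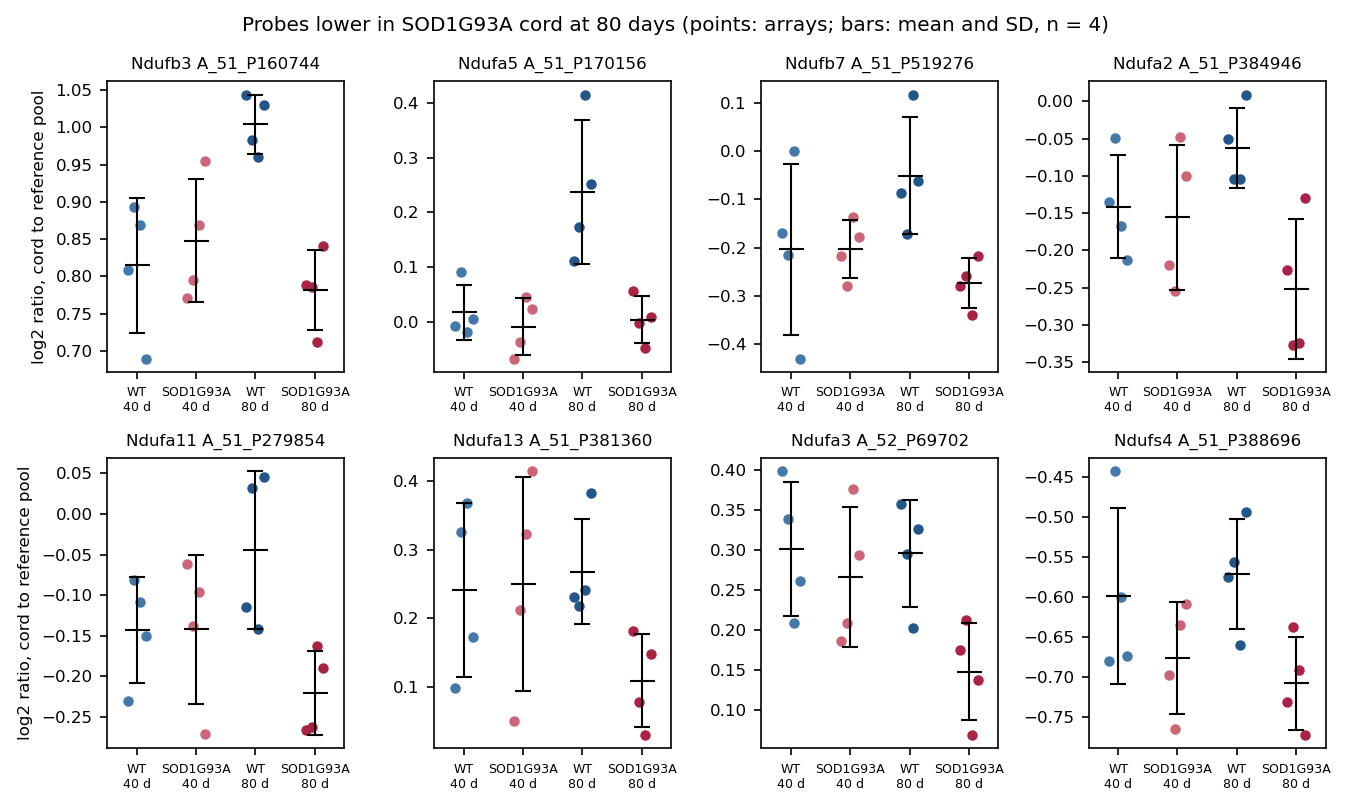
Log2 ratio of cord to the reference pool on each of 16 arrays for the 8 complex I probes lower in SOD1G93A at 80 days, with a scale of its own in each panel, points for arrays, and bars for the mean and SD of 4. At 80 days the groups are apart for the first 6 probes and overlap for Ndufa3 and Ndufs4, while at 40 days the groups overlap for all 8.

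Every gene called between the genotypes, at either age, was an accessory subunit, but 29 of the 36 genes are not core subunits. Of the 29 genes that are not core subunits, Ndufa4 included, 26 had changes below 0 at 80 days (median -0.12). Of the 7 core subunits encoded in the nucleus, 0 were called, 4 had changes above 0 and 3 below, and the median was 0.012. The difference between core and accessory subunits was not tested. Ndufab1, the mitochondrial acyl carrier protein, changed by -0.040 (exact permutation p = 0.771). Ndufa4, named as a complex I subunit but found in complex IV, changed by -0.16 (limma p = 0.0841, exact permutation p = 0.143). The changes of the 39 probes not called ran from -0.16 to 0.20, and their lowest limma p was 0.0599.

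Wild-type 80 days replicate 4 stood above the rest in complex I genes. The complex I score, the median deviation of the 36 genes from their 16-array means, was 0.0029, 0.046, 0.015 and 0.14 in wild-type and -0.032, -0.019, -0.071 and -0.020 in SOD1G93A cord at 80 days, so the groups did not overlap. Within slides, the median difference of the 36 genes at 80 days was -0.0018, -0.081, -0.057 and -0.17 on slides 1 to 4, and 18, 25, 23 and 30 genes were lower in SOD1G93A. Slide 1 showed no shift at the level of the list and slide 4 the greatest. Without SOD1G93A replicate 1 the calls were 5, without wild-type replicate 4 the calls fell from 8 to 4 and the median to -0.055, and without slide 4 to 4 and -0.036. Of all probes, 4.13% were lower and 3.89% higher without SOD1G93A replicate 1, beside 3.18% and 3.68% on all arrays. Without wild-type replicate 4 the shares were 2.31% and 2.68%, and without slide 4 they were 2.34% and 3.09%. The 4 genes called without wild-type replicate 4, and also without slide 4, were Ndufb3, Ndufa5, Ndufb7 and Ndufa2. These were also called with each of the 8 arrays left out in turn. Ndufa11, Ndufa13, Ndufa3 and Ndufs4 were called in 4, 5, 2 and 2 of those 8 fits. Without the 4 arrays highest in muscle markers, of which 3 are at 80 days, the median was -0.13, with 7 member probes lower and 1 higher. Only 4 of the 8 probes called on all arrays were among them, and 1.94% of all probes were lower and 4.56% higher. The arrays dropped at 80 days were SOD1G93A replicates 2 and 4 and wild-type replicate 1. These had the highest complex I scores of the SOD1G93A arrays and the lowest of the wild-type arrays, so the lower median follows in part from which arrays were dropped.

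**Figure D3:**
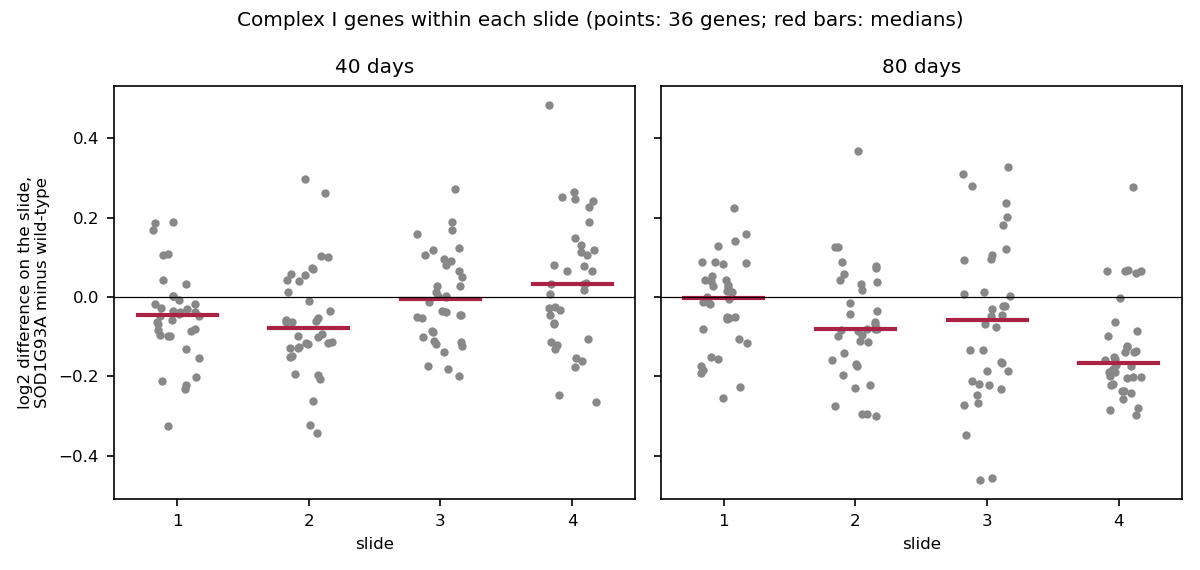
Log2 difference of SOD1G93A minus wild-type on each slide at 40 days (left) and 80 days (right), with points for the 36 complex I genes and red bars for their medians. At 80 days the medians lie between -0.17 on slide 4 and -0.0018 on slide 1, and at 40 days between -0.078 on slide 2 and 0.033 on slide 4.

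Without loess the median change of all probes at 80 days moved to 0.083 and that of the members to 0.037, so that relative to all probes the members stood at -0.046, beside -0.069 with loess. The 8 probes then had changes of -0.12 to -0.0098, all below 0, and none of them was called. The members called without loess were 2 higher and 0 lower, where 9.85% of all probes were higher and 0.324% lower. The Cy3 channel alone left 4 called members (median -0.030), and the values deposited by the authors left 3 (median -0.034). All of these were lower, where 2.18% of all probes were lower with Cy3 alone and 2.11% with the deposited values.

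At 40 days, 2 of 47 member probes were lower in SOD1G93A cord and 0 were higher, where 2.02% of all 21338 probes were lower and 2.5% were higher. Both belong to the distal membrane arm. Ndufb8, an accessory subunit often used as a marker of assembled complex I, had log2 ratios of -0.27, -0.074, -0.21 and -0.22 in wild-type and -0.36, -0.33, -0.32 and -0.37 in SOD1G93A cord. Its groups did not overlap, and the change was -0.16 ± 0.055 (SE, limma p = 0.0175, exact permutation p = 0.0286). It was the only member without overlap at this age, where 1.3% of all probes had every SOD1G93A array below every wild-type array and 1.56% the reverse. Ndufb11, an X-linked accessory subunit needed for assembly, had log2 ratios of -0.81, -0.66, -0.73 and -0.87 in wild-type and -1.04, -1.01, -0.85 and -0.90 in SOD1G93A cord. Its groups overlapped by 1 array on each side (change -0.18 ± 0.067, SE, limma p = 0.0209, exact permutation p = 0.0571). A second, dim probe of Ndufb8, well above background on 12 of 16 arrays, had a change of 0.027 at 40 days (exact permutation p = 0.629) and -0.073 at 80 days (exact permutation p = 0.429). The lowest adjusted p of the members was 0.997 in limma with Benjamini-Hochberg adjustment.

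At 40 days the median change per gene was -0.017, beside 0.0030 for all probes, with 23 of 36 genes below 0. Without slide 4 the median was -0.048 at 40 days, with 38 of 47 probes below 0, beside -0.036 and 30 of 47 at 80 days. The 45 probes not called ran from -0.084 to 0.11. Within slides the medians were -0.045, -0.078, -0.0056 and 0.033. Without loess all 47 changes were below 0 (median -0.16), but the median of all probes was then -0.12. The count of called members was 1 without wild-type replicate 2, or SOD1G93A replicate 1 or 2, and 4 without wild-type replicate 4. Of all probes, 4.58% were lower and 4.39% higher without wild-type replicate 4. Without each of the others named, 1.39% to 1.73% were lower and 1.76% to 2.09% higher.

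No probe was called at both ages. Ndufb3, Ndufb7, Ndufb8, Ndufb11 and Ndufa5 are also on a list of lowered genes that the study drew from these samples, so their direction here is not independent evidence. The 8 probes called at 80 days had changes of -0.078 to 0.033 at 40 days, 4 of them below 0, with 0.277 as the lowest limma p. At 80 days Ndufb8 changed by -0.066 (exact permutation p = 0.486) and Ndufb11 by -0.14 (exact permutation p = 0.114). The test of the difference of the genotype change between ages called 2 of 47 probes lower and 0 higher, where 3.64% of all 21953 probes were lower and 3.08% were higher. At 40 days Ndufb3 had log2 ratios of 0.81, 0.89, 0.87 and 0.69 in wild-type and 0.77, 0.80, 0.87 and 0.96 in SOD1G93A cord, and Ndufa5 had -0.0081, 0.092, -0.019 and 0.0060 against -0.067, -0.037, 0.046 and 0.024. For both genes the groups overlapped at this age. The 2 probes called in the test of the difference were those of Ndufb3, with a difference of -0.26 ± 0.081 (SE, 95% confidence interval -0.43 to -0.083), and Ndufa5, with -0.21 ± 0.087 (SE, -0.39 to -0.024). Their adjusted p was 0.573 and 0.715 in limma with Benjamini-Hochberg adjustment. Neither was called in this test with the Cy3 channel alone or without loess. The median difference of the members was -0.056, and 0.0042 without slide 4, the only slide left out as a whole. With each array left out in turn the median ran from -0.072 to -0.028. Ndufb3 was still called without slide 4 and Ndufa5 was not. The count called was 1 without SOD1G93A replicate 3 of 40 days, and 4 or 5 without wild-type replicate 2 of 40 days, wild-type replicates 1 or 2 of 80 days, or SOD1G93A replicate 3 of 80 days. Of all probes, 3.22% were lower and 2.3% higher without SOD1G93A replicate 3 of 40 days. Without each of the others named, 2.98% to 3.59% were lower and 2.53% to 3.68% higher.

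In wild-type cord, 3 of 47 member probes were higher at 80 than at 40 days and 1 was lower, where 7.05% of all 21526 probes were higher and 8.34% were lower. All 4 were without overlap between the ages, which 3.3% of all probes were with every 80-day array above and 4.47% with every 80-day array below. Ndufa5 had a mean log2 ratio of 0.018 at 40 and 0.24 at 80 days (change 0.22 ± 0.061, SE, limma p = 0.00241, exact permutation p = 0.0286), and Ndufb3 had means of 0.82 and 1.00 (change 0.19 ± 0.058, SE, limma p = 0.00458, exact permutation p = 0.0286). Ndufb5, an accessory subunit of the distal arm, had log2 ratios of 0.15, 0.14, 0.15 and 0.29 at 40 and 0.39, 0.43, 0.45 and 0.43 at 80 days, a change of 0.24 ± 0.071 (SE, limma p = 0.00375, exact permutation p = 0.0286). Ndufa8, an accessory subunit with paired cysteines in the intermembrane space, had -0.0084, -0.16, -0.020 and -0.063 at 40 and -0.19, -0.22, -0.25 and -0.21 at 80 days, a change of -0.16 ± 0.056 (SE, limma p = 0.0134, exact permutation p = 0.0286). The count called was 8 without replicate 1 of 80 days, and 7 without replicate 4 of either age. Of all probes, 6.7% were lower and 5.6% higher without replicate 1 of 80 days. Without replicate 4 the shares were 8.34% and 7.55% for 40 days, and 8.8% and 7.4% for 80 days. The median change per gene of the members, 0.051 on all arrays, was 0.0092 without replicate 4 of 80 days, beside 0.013 for all probes. The comparisons of age in wild-type and of genotype at 80 days share the 4 wild-type arrays of 80 days.

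In SOD1G93A cord, 2 of 47 member probes were higher at 80 than at 40 days and 0 were lower, where 8.73% of all 21507 probes were higher and 8.45% were lower. Ndufs7, a core subunit that holds the last iron-sulfur cluster before ubiquinone, had log2 ratios of 0.15, 0.18, 0.23 and 0.10 at 40 and 0.33, 0.35, 0.31 and 0.33 at 80 days (change 0.16 ± 0.048, SE, limma p = 0.00355, exact permutation p = 0.0286). Ndufb8 had -0.36, -0.33, -0.32 and -0.37 at 40 and -0.28, -0.10, -0.23 and -0.16 at 80 days (change 0.16 ± 0.070, SE, limma p = 0.0405, exact permutation p = 0.0286). Both were without overlap, which 6.24% of all probes were in this direction and 6.41% in the other. The 2 genes high in wild-type at 80 days and lower in SOD1G93A, Ndufb3 and Ndufa5, had means of 0.85 and 0.78 and of -0.0083 and 0.0045 at 40 and 80 days in SOD1G93A cord. None of the members passed an adjusted p under 0.05 for age, with 0.0880 as the lowest in wild-type and 0.104 in SOD1G93A cord (limma, Benjamini-Hochberg), while 349 and 249 probes of the array did. The count called in SOD1G93A cord was 1 without replicate 2, 3 or 4 of 40 days and 5 without replicate 4 of 80 days. Of all probes, 8.57% were lower and 9.62% higher without replicate 4 of 80 days. Without each of the 40-day replicates named, 6.93% to 7.23% were lower and 6.77% to 7.38% higher.

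**Figure D4:**
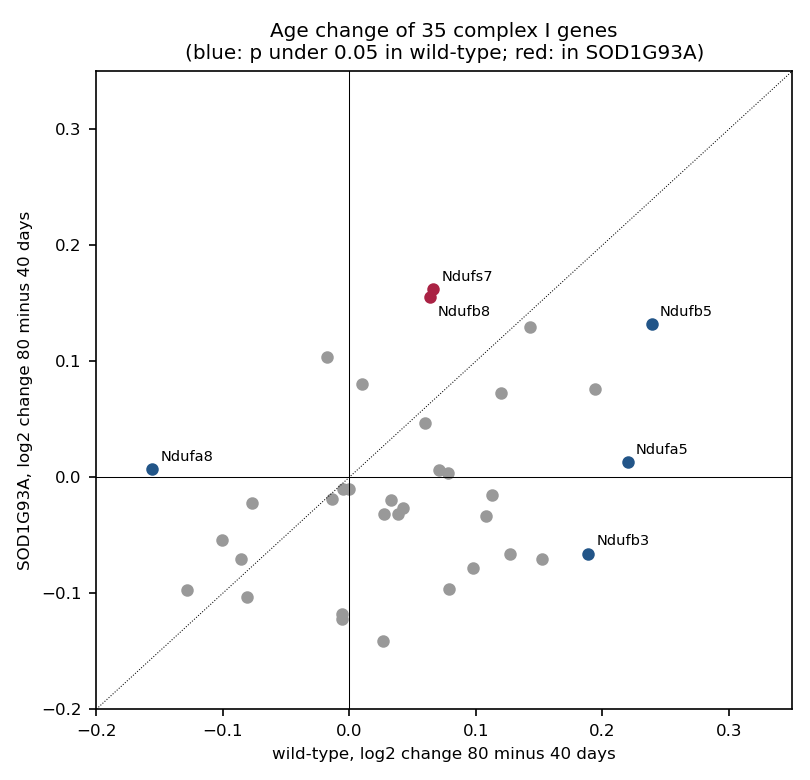
Log2 change from 40 to 80 days in wild-type cord (horizontal) against that in SOD1G93A cord (vertical) for 35 complex I genes, 1 probe per gene, with a dotted line of equal change, blue for p under 0.05 in wild-type and red for p under 0.05 in SOD1G93A. Ndufb3 and Ndufa5 lie at 0.19 and 0.22 in wild-type and near 0 in SOD1G93A, below the dotted line.

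The other respiratory complexes were described from lists by gene symbol. Of 44 nuclear-encoded subunits of complexes II to V tested, 8 were lower and 2 higher in SOD1G93A cord at 80 days, with a median of -0.074, close to that of complex I, and 30 changes below 0. The 4 with the lowest p were Cox7b of complex IV (-0.31), Sdhc of complex II (0.20), Uqcrh of complex III (-0.23) and Cox7a2 of complex IV (-0.21), with adjusted p of 0.658 to 0.667 in limma. At 40 days 1 of the 44 was called, Cox6a2, the muscle form of a complex IV subunit, at 0.50 (adjusted p = 0.997 in limma), and the median was -0.0024. On the arrays of 80 days the score of complexes II to V was -0.029 to 0.11 in wild-type, highest in replicate 4, and -0.058 to -0.041 in SOD1G93A cord. A list of 11 other mitochondrial genes, among them citrate synthase and parts of the protein import machinery, stood the other way with some overlap. Its scores at 80 days were -0.11 to -0.0037 in wild-type and -0.0088 to 0.049 in SOD1G93A cord. The median change was 0.081, and 1 gene was called, Tomm40 (0.28, adjusted p = 0.681 in limma).

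Of 14 complex I assembly factors tested, which build the complex but are not part of it, 0 were called at 40 days and 1 was lower at 80 days, Lyrm2 (-0.19, adjusted p = 0.706 in limma), with medians of -0.029 and 0.0036. Of 12 transcriptional regulators of mitochondrial genes, among them Nrf1, Gabpa, Yy1 and Ppargc1a, 0 were called at either age (limma, unadjusted p under 0.05), with medians of 0.011 and 0.0040. The 7 complex I subunits encoded in mitochondrial DNA were not found by name and were not analysed here. Ndufv3, an accessory subunit of the N module, carries another name on the array and so falls outside the rule. Of its 3 probes, 1 was higher in SOD1G93A cord at 80 days at the same threshold (0.27), and the others were not called (0.20 and -0.056).

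**Figure D5:**
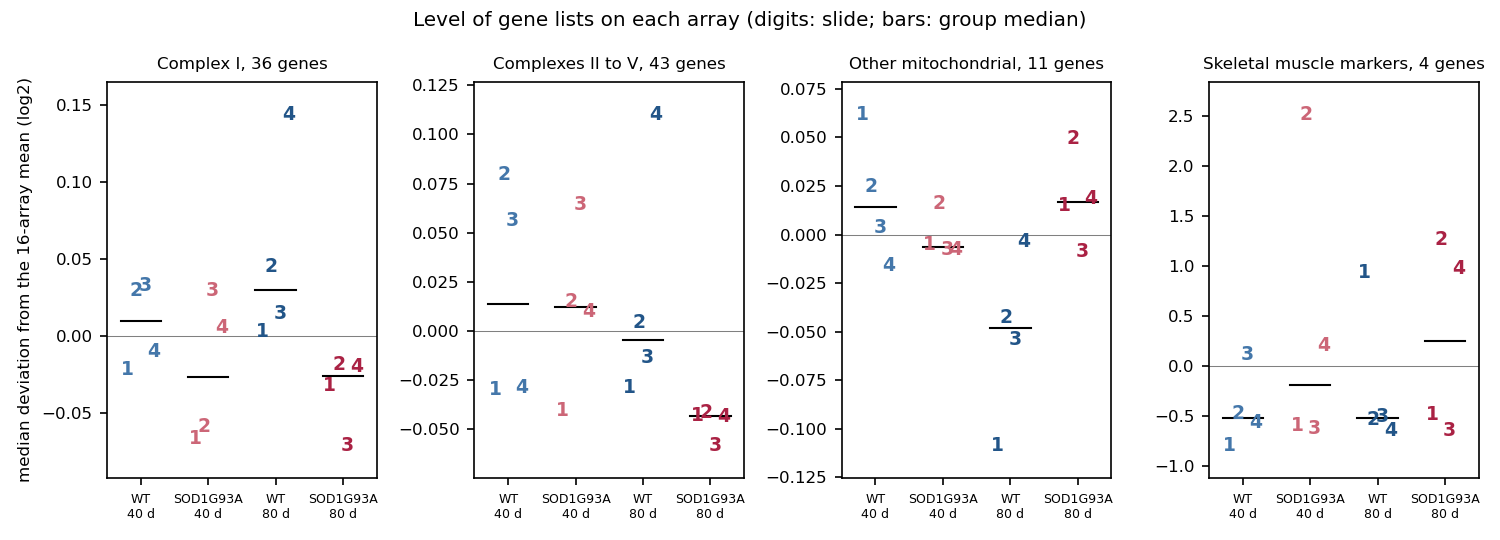
Median deviation of the genes of 4 lists from their 16-array means (log2) on each array, with a scale of its own in each panel, digits for the slide and bars for group medians. At 80 days the SOD1G93A arrays lie below the wild-type arrays for complex I and complexes II to V, and wild-type replicate 4 is the highest in both, while the muscle scores overlap between the genotypes.

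Neuronal markers had 1 of 11 genes called at each age, Slc17a6 (0.17) higher at 40 days and Syt1 (-0.33) lower at 80 days, with medians of 0.10 and -0.054. Changes of neuronal markers were above 0 for 10 of the 11 at 40 days and below 0 for 10 of the 11 at 80 days. The neuronal scores on the arrays of 80 days were -0.024 to 0.16 in wild-type and -0.21 to 0.072 in SOD1G93A cord, so they overlapped. Astrocyte markers had 4 of 8 genes higher at 40 days (S100b, Gfap, Slc1a2 and Slc1a3, median of the list 0.19) and 1 lower at 80 days (Slc1a2, median -0.076). Changes of astrocyte markers were above 0 for all 8 at 40 days and below 0 for 7 of the 8 at 80 days. Oligodendrocyte markers had 3 of 8 higher at 40 days (among them Cldn11 and Mbp, median 0.15) and 2 higher at 80 days (Mog and Cnp, median 0.063). Changes of oligodendrocyte markers were above 0 for 7 of the 8 at 40 days. At 80 days 5 were above 0 and 3 below, the lowest at -0.15. At 40 days 1 of 8 microglial markers was higher, C1qb (0.29), and 1 of 3 sensory neuron markers was lower, Calca (-0.46), with 0 of either called at 80 days (limma, unadjusted p under 0.05). Of 6 markers of motor neurons, the cells lost in this line, 0 were called at either age (limma, unadjusted p under 0.05), with medians of -0.066 and 0.0081. Markers of Schwann cells and nerve roots had a median of -0.89 at 40 days, with 0 of 5 called and scores of -0.57 to 1.07 in wild-type and -0.63 to 0.37 in SOD1G93A cord. The part of cell makeup in the complex I values was not tested.

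Across the 16 arrays, the correlation of each gene with the median of the other 35 was above 0 for 30 of the 36 genes, with a median of 0.47, over arrays that share slides and a reference. Group means were not removed, so differences between the groups enter this correlation, and it was not computed for other genes. The correlation was highest for Ndufa1 (0.74), Ndufa2 (0.71), Ndufs4 (0.71) and Ndufa13 (0.70), of which all but Ndufa1 were called lower at 80 days. Among the genes below 0 were Ndufa10 (-0.45), an accessory subunit of the membrane arm, and Ndufv1 (-0.22), the core subunit that binds NADH and the flavin.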

How the data were processed

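Lumbar spinal cord RNA of 16 biological replicates was hybridized to 4x44K whole mouse genome arrays, with Cy3 for the sample and Cy5 for the neonatal pool. The authors extracted spots with Agilent Feature Extraction 9.5.3.1, per the file headers, and deposited raw files that hold median spot intensity values without normalization. Their deposited series matrix holds log2 values, which follow the Cy3 channel alone and were normalized separately at each age, so they were used as an alternative within ages only. Probe coordinates are those of the file headers, on mm7 (NCBI 35).

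Here, R 4.3.3 with limma 3.58.1, statmod 1.5.0 and the data.table package (version 1.17.8) was used to obtain the log2 ratio of sample to pool. Local backgrounds over 20 units above the spot's own signal were set to the median background of the array, since a few such spots had compressed the ratios of 3 arrays. Background was then corrected by the normexp method (offset 50), and ratios were normalized by loess within arrays and by quantiles of the mean intensity between arrays. Control spots and outlier spots (107 to 301 per array) were dropped, and repeated spots of a probe were averaged. Testing a probe required Cy3 well above background on 3 or more of a group's 4 arrays, and 2 or more measured arrays in every group. Between 46.7% and 56.1% of spots were well above background in Cy3, with 0 saturated, and the number of arrays limits precision. A dim probe's change is understated by the offset.

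Genotypes were compared on the 8 arrays of an age with lmFit and eBayes, and ages and their interaction on 16 arrays. All p-values are two-sided and unadjusted unless called adjusted, with the threshold of 0.05 that the methods of the study use. Fits were tested on simulated data. The brightest probe stood for a gene in counts per gene. Named are members with p under 0.05 (at most 8 per comparison), members that the study lists, and genes of other lists when called, at most 4 per list, of which a few are not reported here by name. Members named for the extremes of a ratio or correlation were chosen after their values were seen. The members and lists were chosen with earlier results of these data known. Alternatives changed background correction, normalization, filter, outliers, array weights, the estimate of spread, blocking by replicate number, and the set of arrays, each of which was omitted in turn. Promoter windows come from RefSeq. Python 3.11.15 and matplotlib 3.10.9 were used for figures.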

Additional observations from a re-analysis of the deposited data

Results flagged for a closer look

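Among the 56 sets of 4 arrays examined for the named members and the complex I score, 2 held an array far from the others by Dixon's criterion, which chance meets in about 1 in 20. Ndufb5 was 0.29 in wild-type 40 days replicate 4 and 0.14 to 0.15 on the other arrays of that group. Ndufa13 was 0.38 in wild-type 80 days replicate 4 and 0.22 to 0.24 on the others, and without that array its change at 80 days was -0.12, no longer called.

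The genotype change differed between ages for Ndufb3 (-0.26) and Ndufa5 (-0.21) by the limma interaction test at an unadjusted threshold of 0.05. The adjusted p was 0.573 and 0.715. Neither gene was called with the Cy3 channel alone or without loess.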

How the results depend on the processing

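Counts here are of member probes called in either direction, and medians are over the 36 genes. With array weights the count was 14 at 80 days (13 lower, 1 higher), 5 for the difference between ages, 8 for age in wild-type and 4 for age in SOD1G93A cord. Of all probes, 4.98% were then lower and 6.09% higher at 80 days, and 4.73% and 4.32% for the difference. For age, 7.31% were lower and 6.66% higher in wild-type, and 10.9% and 12.4% in SOD1G93A cord. Without loess the count was 2 at 80 days, 5 for the difference and 8 for age in wild-type. The 5 were all higher, where 19.5% of all probes were higher, and the 8 were all lower, where 18% were lower. The medians of the members were -0.16 at 40 days, 0.037 at 80 days, 0.19 for the difference, -0.12 for age in wild-type and 0.070 for age in SOD1G93A cord. The medians of all probes then moved alike, to -0.12, 0.083, 0.20, -0.11 and 0.083, and the members stood at -0.041, -0.046, -0.012, -0.013 and -0.013 relative to them. With the Cy3 channel alone the count was 4 at 80 days, 7 for age in wild-type and 1 in SOD1G93A cord. The medians were 0.033 for the difference and -0.017 for age in wild-type. For the difference, 1 member was then called lower and 1 higher, neither of them Ndufb3 or Ndufa5. At 40 days 2 were lower and 1 higher, both with Cy3 alone and in the series matrix. Of all probes with Cy3 alone, 2.18% were lower and 3.12% higher at 80 days, and 6.26% and 5.46% for age in wild-type. With the scanner's processed signals the count was 1 at 40 days, 5 at 80 days and 5 for age in SOD1G93A cord. Of all probes, 4.53% were then lower and 2.5% higher at 80 days, and 11.4% and 6.11% for age in SOD1G93A cord. The deposited series matrix gave 3 at 80 days, where 2.11% of all probes were lower and 3.15% higher, and could not be used between ages. The difference gave 1 without background subtraction and 4 with no filter on dim probes. Of all probes, 4.09% were lower and 2.94% higher in the first case, and 3.26% and 2.75% in the other. The cause of these shifts was not tested.

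Leaving out slide 4 or the 4 arrays highest in muscle markers was chosen after seeing the data. Without slide 4 the count was 4 at 40 days, 4 at 80 days, 1 for the difference (median 0.0042) and 8 for age in wild-type. Of all probes, 4.67% were then lower and 3.95% higher at 40 days, and 2.34% and 3.09% at 80 days. For age in wild-type, 8.95% were lower and 8.58% higher. Without the 4 arrays the count was 1 at 40 days, 5 for the difference and 5 for age in SOD1G93A cord, and the median at 80 days was -0.13. Of all probes, 2.7% were then lower and 2.75% higher for the difference, and 5.77% and 7.05% for age in SOD1G93A cord. With each array left out in turn, counts ran from 1 to 4 at 40 days (medians -0.041 to -0.0056), 4 to 11 at 80 days (-0.10 to -0.055), 1 to 5 for the difference (-0.072 to -0.028), 4 to 8 for age in wild-type (0.0092 to 0.070) and 1 to 5 in SOD1G93A cord (-0.031 to -0.0036). The shares of all probes moved too, from 1.32% to 4.58% lower and 1.76% to 4.39% higher at 40 days. At 80 days they were 2.18% to 4.72% lower and 2.34% to 5.2% higher. For the difference they were 2.96% to 4.81% and 2.3% to 3.78%. For age in wild-type they were 6.7% to 8.8% and 5.6% to 7.55%. For age in SOD1G93A cord they were 6.43% to 8.57% and 6.03% to 9.62%. With the replicate block the count at 80 days was 7, without Ndufs4, and 2, 2, 4 and 2 in the other comparisons, as without it. The replicate number is the slide, and nothing says that it pairs the mice. Deviations of same-numbered arrays correlated at 0.092 to 0.21 between the SOD1G93A groups of 40 and 80 days, each array best with its own number, while over all comparisons the correlations ran from -0.064 to 0.21.

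Of the named probes, 21 values changed sign. At 40 days, where none of these was called, Ndufb7 was -0.006 with bright local backgrounds kept, -0.0096 without background subtraction, -0.16 without loess, -0.035 with array weights, -0.083 without slide 4, and from -0.075 to 0.068 with each array left out in turn, with -0.022, -0.008 and -0.0038 as the other values below 0. Ndufb3 at 40 days was -0.11 without loess, -0.045 without slide 4, and -0.0088 to 0.059 with each array left out, with -0.0029 as the other value below 0, and Ndufa5 was 0.0025 with processed signals. At 80 days Ndufb8 was 0.038 without loess and 0.0054 with Cy3 alone, and Ndufa13 was 0.019 with Cy3 alone and 0.0054 in the series matrix. Without loess the difference was 0.0076 for Ndufb3 and 0.047 for Ndufa5, and the age change of Ndufb3 in wild-type was -0.0024, beside those shifts of all probes. Probes near background have only compressed changes.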
